A study of Homo sapiens with 6 samples.

Results

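The members described here are 32 genes whose symbols end in -AS and a number, the mark of an RNA named as antisense to a neighbouring gene, chosen by their mean level: at least 1 TPM (a share of a library's transcripts, corrected for transcript length) over all 6 libraries. They were 32 of 131 rows with such a symbol, in a table of 27451 gene rows. The other 99 rows lay under 1 TPM, and 41 of them were listed at 0 in every library. The level chose the members, so the levels are a description. The rule that chose them did not use the difference between the treatments, but earlier results of these data were known when they were chosen. A mean of at least 1 TPM in 1 of the groups only was found for 3 members. The RNA came from the MDA-MB-231 line, human breast cancer cells long kept in culture that lack estrogen and progesterone receptors. The cells were exposed for 2 h to 2 µM of H182 (3 libraries), one of the azetidine-based STAT3 inhibitors of the series title, or to the vehicle DMSO alone (3 libraries). Libraries were stranded and selected for poly-A RNA. The line's mesenchymal marker VIM was at 3430 to 3701 TPM in H182 and 4002 to 4051 TPM in DMSO, and the receptor genes ESR1 and PGR did not exceed 0.06 TPM in any library. The receptor gene ERBB2 was present, at 24.92 to 26.97 TPM in H182 and 26.17 to 29.4 TPM in DMSO. The 9 markers of blood, endothelial and fibroblast cells summed to 8.73 to 11.15 TPM per library, most of it COL1A1 at 6.81 to 8.37 TPM.

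Antisense RNAs are transcripts of the strand opposite a gene, usually noncoding. Some overlap the exons of their gene, and pairing with its mRNA or passage of the polymerase through it can then affect that gene. Others are divergent: they start beside the gene's own start, at a promoter that fires in both directions, and run away from it. Many divergent transcripts are short-lived, because the nuclear exosome with its NEXT adaptor, and the Integrator complex, end or degrade them soon after initiation.

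Most of the expressed antisense RNAs were divergent and did not overlap the gene they are named for. In the GENCODE 29 annotation of GRCh38, 31 of the 32 were found by gene identifier, and 29 had a partner, the gene whose symbol stands before -AS, that was also in both the table and the annotation. Of these 29, 20 were divergent, with starts 26 to 418 bases apart (median 138.5 bases), no overlap and opposite strands. Another 7 shared exonic bases with the partner, and HIF1A-AS2 overlapped the body of HIF1A without sharing an exonic base. Of those 7, SLC25A30-AS1, EPHA5-AS1, PSMB8-AS1, MAPKAPK5-AS1 and PSMG3-AS1 also started near the partner's start, 293 to 932 bases away on the opposite strand. Divergent here thus means near starts without overlap. Among the 95 rows under 1 TPM that could be placed, 42 were divergent, 15 shared exonic bases, 31 overlapped the body only and 7 had another position. The remaining placed member was the row named PGM5-AS1. Its identifier lay 27254598 bases from the start of PGM5 on the same strand of chromosome 9, so it is not antisense to PGM5 in this annotation. NCBP2-AS2 was annotated as protein coding in GENCODE 29, and the other 30 placed members as long noncoding. Later symbols for several identifiers record the same arrangement: GAS6-AS2 is now GAS6-DT and OSER1-AS1 is OSER1-DT, where DT stands for divergent transcript. The identifier listed as HIF1A-AS2 now has the symbol HIF1A-AS3.

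The start regions of the members that passed the test below are shown first, since they make the arrangement visible. Each window holds 300 bases around a start in RefSeq (GRCh38.p14), most of them upstream, written 5′ to 3′ on the strand of the antisense RNA. Capitals mark matches on either strand to the CCAAT box (CCAAT), the core of ETS factor sites (CCGGAAG), the cyclic AMP response element (TGACGTCA) or a heat shock element (GAANNTTC). The window of NCBP2-AS2 (chr3:196942424-196942723, plus strand) shared 245 of its 300 bases with the window of NCBP2 on the other strand, and that of GAS6-AS2 (chr13:113863927-113864226, plus strand) shared 200 bases with the window of GAS6. MAPKAPK5-AS1 had a pair of RefSeq starts. The upstream window (chr12:111842956-111843255, minus strand) shared no base with that of MAPKAPK5, and the downstream window (chr12:111841881-111842180, minus strand) shared 203. The window of HIF1A-AS2 (chr14:61751048-61751347, minus strand, RefSeq symbol HIF1A-AS3) began at the GENCODE start of the listed identifier, beyond the 3′ end of HIF1A, and shared none. RefSeq gives the symbol HIF1A-AS2 to another start 2008 bases from that one, whose window (chr14:61749040-61749339, minus strand) shared no base with that of HIF1A, had 34.7% G and C and no CpG, and held none of the motifs; it is not printed.
NCBP2-AS2: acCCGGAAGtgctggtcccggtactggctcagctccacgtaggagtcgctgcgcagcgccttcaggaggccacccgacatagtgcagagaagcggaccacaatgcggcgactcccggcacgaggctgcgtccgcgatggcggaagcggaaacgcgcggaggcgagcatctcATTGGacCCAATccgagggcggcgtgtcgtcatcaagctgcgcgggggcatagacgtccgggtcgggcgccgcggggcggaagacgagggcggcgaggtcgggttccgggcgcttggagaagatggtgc
GAS6-AS2: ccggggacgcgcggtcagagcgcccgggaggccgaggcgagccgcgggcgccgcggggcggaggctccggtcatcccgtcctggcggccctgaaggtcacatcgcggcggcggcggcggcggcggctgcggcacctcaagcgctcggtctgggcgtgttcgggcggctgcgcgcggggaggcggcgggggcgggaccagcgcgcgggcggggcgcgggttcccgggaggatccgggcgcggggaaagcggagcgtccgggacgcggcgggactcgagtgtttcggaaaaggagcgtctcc
MAPKAPK5-AS1, upstream start: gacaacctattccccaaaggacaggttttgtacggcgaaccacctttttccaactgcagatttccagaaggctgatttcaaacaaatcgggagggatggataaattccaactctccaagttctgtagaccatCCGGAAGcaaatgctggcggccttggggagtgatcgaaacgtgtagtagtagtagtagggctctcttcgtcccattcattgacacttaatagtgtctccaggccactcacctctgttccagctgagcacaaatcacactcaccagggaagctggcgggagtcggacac
MAPKAPK5-AS1, downstream start: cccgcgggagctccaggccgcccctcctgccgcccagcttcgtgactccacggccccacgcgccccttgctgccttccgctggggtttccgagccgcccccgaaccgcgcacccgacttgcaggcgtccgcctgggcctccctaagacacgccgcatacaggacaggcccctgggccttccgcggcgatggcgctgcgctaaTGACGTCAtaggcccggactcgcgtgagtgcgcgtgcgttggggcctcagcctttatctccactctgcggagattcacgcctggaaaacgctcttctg
HIF1A-AS2: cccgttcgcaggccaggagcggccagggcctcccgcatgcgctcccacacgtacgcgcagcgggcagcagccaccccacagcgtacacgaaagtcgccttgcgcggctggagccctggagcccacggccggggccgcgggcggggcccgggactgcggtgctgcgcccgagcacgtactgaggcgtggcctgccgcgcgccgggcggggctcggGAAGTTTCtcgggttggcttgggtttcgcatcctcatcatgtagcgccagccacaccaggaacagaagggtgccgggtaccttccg

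The NCBP2-AS2 window held CCAAT on each strand 2 bases apart and 1 CCGGAAG, and the GAS6-AS2 window held none of the motifs in 300 bases with 79.7% G and C. The upstream MAPKAPK5-AS1 window held 1 CCGGAAG, the downstream window 1 TGACGTCA, and the HIF1A-AS2 window 1 match to GAANNTTC. Among all 35116 promoter windows in the RefSeq table, CCAAT occurred in 34.6%, CCGGAAG in 10.3%, TGACGTCA in 1.85% and GAANNTTC in 6.77%. Windows were found for 28 of the 32 members, taking the start nearest to the GENCODE start. Of these 28, 6 held CCAAT, 4 CCGGAAG, 2 GAANNTTC, 2 the palindromic NRF1 motif (1.24% of all windows), and none TGACGTCA or the TATA box TATAAA (11.5% of all windows). The windows held a median of 70.5% G and C and 32 CpG dinucleotides, against 58.7% and 14 in all windows. Not all of them were rich in G and C: 5 of the 28 lay below the median of all windows, down to 45% in PGM5P4-AS1, and the upstream MAPKAPK5-AS1 window held 50%. The 63 windows found for antisense rows under 1 TPM had medians of 62.3% and 19. A match is a match of letters only, and its use in these cells was not tested.

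**Figure D1:**
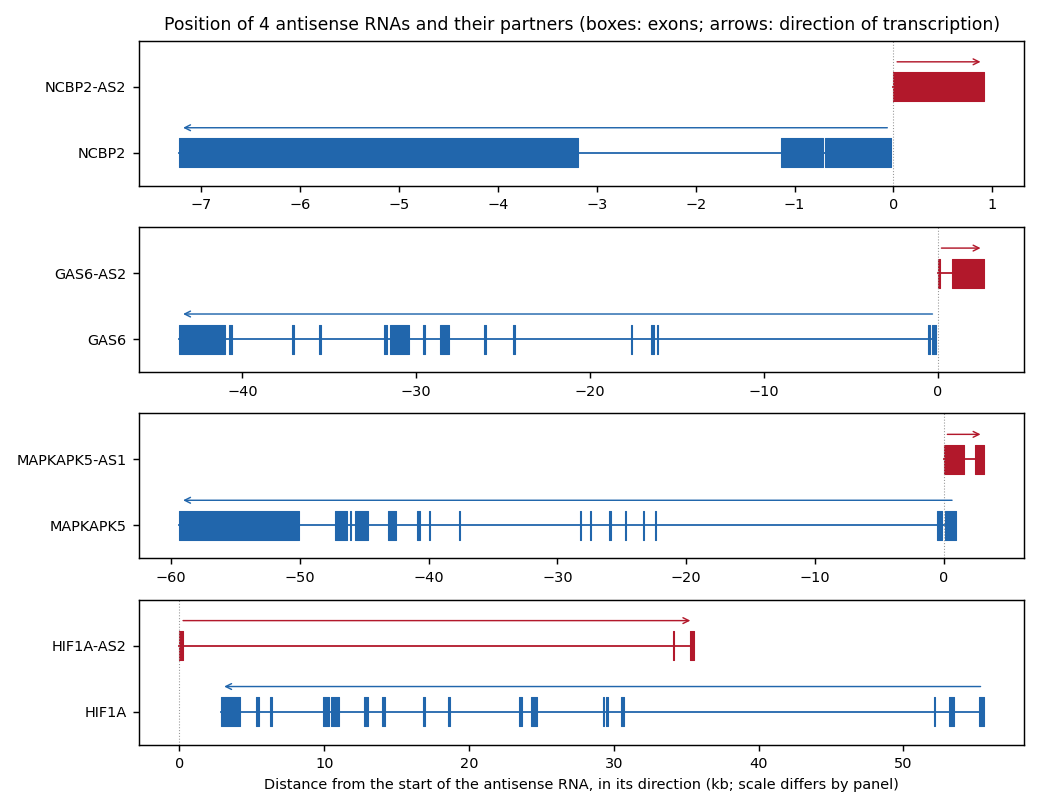
Position of the 4 antisense RNAs that passed the test (red) and their partners (blue), as distance in kb from the antisense start. Boxes are GENCODE 29 exons, arrows give the direction of transcription, and the scale differs by panel. NCBP2-AS2 and GAS6-AS2 start 26 and 101 bases from their partners and run away from them, MAPKAPK5-AS1 overlaps the start of MAPKAPK5, and HIF1A-AS2 starts beyond the end of HIF1A and shares no exonic base with it.

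In level the members were low. Over the 6 libraries 9 members averaged 1 to 2 TPM, 18 averaged 2 to 10 TPM and 5 averaged more. Those 5 held 55.98% of the members' summed TPM. The sum over all 32 was 229.5 ± 8.81 TPM in H182 and 238.9 ± 8.51 TPM in DMSO (SD, n = 3 each). In 24 of 29 pairs the antisense RNA was the lower of the pair in TPM. Over all 29 pairs the antisense RNA had a median of 16.34% of the level of its partner. These pairs leave out PGM5-AS1 and PGM5, which are far apart, and include C1QTNF9B-AS1, which could not be placed. The range ran from 2.27% for PSMG3-AS1 to 1515% for EPB41L4A-AS1, whose partner EPB41L4A, a gene of the FERM domain family, averaged 2.57 TPM. Both pairs share exonic bases, 0.944% of those of PSMG3-AS1 and 49.6% of those of EPB41L4A-AS1. The strand setting of the counting was not given, so reads of these stretches may have been shared between the genes. EPB41L4A-AS1 had the highest level, with 43.56, 40.96 and 28.89 TPM in H182 libraries and 36.84, 39.20 and 44.18 TPM in DMSO libraries. RAB30-AS1, divergent from the small GTPase gene RAB30, had 19.08, 17.38 and 19.06 TPM in H182 and 20.56, 16.27 and 16.16 TPM in DMSO. For both the groups overlapped.

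For the members closest to the limit of 1 TPM the groups overlapped. Just inside it, PSMG3-AS1 had 1.13, 1.32 and 1.13 TPM in H182 against 0.77, 1.25 and 0.83 TPM in DMSO. FLVCR1-AS1 had 1.30, 1.05 and 1.82 TPM in H182 against 0.79, 0.98 and 1.23 TPM in DMSO. PGM5P4-AS1 had 3.71, 0.33 and 0.00 TPM in H182 against 0.79, 0.92 and 0.98 TPM in DMSO, so that 1 library carried its mean. Just outside lay YTHDF3-AS1 with a mean of 0.967 TPM, RALY-AS1 with 0.955 TPM and GATA6-AS1 with 0.84 TPM.

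Which antisense RNAs differed after 2 h of exposure was tested with limma on log2(TPM + 1), fitted over all 12294 genes that averaged 1 TPM or more, with Benjamini-Hochberg adjustment over all of them and a threshold of 0.05. A change on this scale understates that of a lowly expressed gene. Of the 32 members 4 passed. NCBP2-AS2 and GAS6-AS2 fell, and MAPKAPK5-AS1 and HIF1A-AS2 rose, with ratios of mean TPM between 0.666 and 1.334. That is 12.5% of the members, where 24.0% of all tested genes passed (5.30% higher and 18.7% lower). With median-of-ratios scaling 14.7% of all genes passed, 969 higher and 833 lower in place of 651 and 2304, and the members' counts stayed 2 and 2. The groups did not overlap in TPM for 6 members (18.8%), against 41.4% of all tested genes. The members were lower in level than most tested genes, and at 1 to 10 TPM this held for 4 of 27 members and 1036 of 3708 genes. The members' median change was -0.02 on the log2 scale, against -0.09 over all genes, and 0.06 against 0.00 with median-of-ratios scaling. Changes ran from -0.57 (PGM5-AS1, adjusted p = 0.127) to 0.49 (EPHA5-AS1, adjusted p = 0.155), and 19 of the 32 lay within 0.2 of 0. No test was run over the members as a list. In bulk RNA, fewer cells with an RNA and less of it per cell cannot be told apart.

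**Figure D2:**
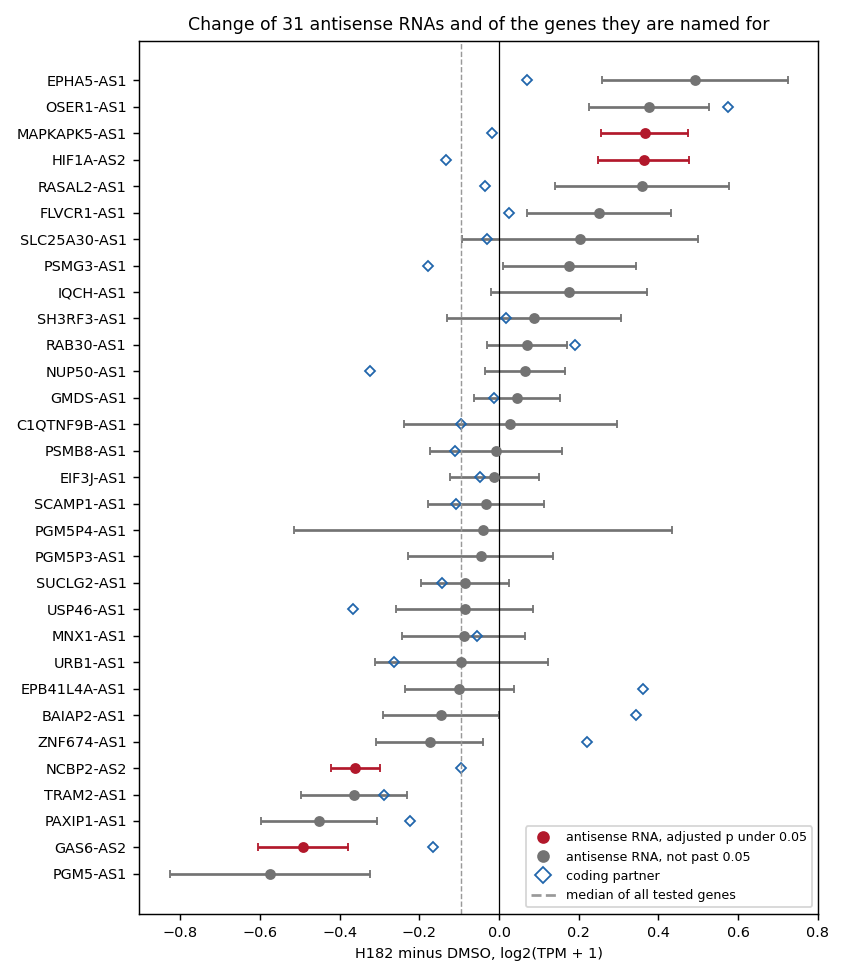
Change of 31 of the 32 antisense RNAs on the log2(TPM + 1) scale (circles, H182 minus DMSO, bars ± SE) and of its coding partner where tested (diamonds). NCBP2-AS2 and GAS6-AS2 (fell) and MAPKAPK5-AS1 and HIF1A-AS2 (rose), in red, passed an adjusted p of 0.05, and the dashed line is the median of all tested genes at -0.09.

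NCBP2-AS2 (ENSG00000270170.1, chromosome 3, 196942623 to 196943540, plus strand, 1 exon) starts 26 bases from NCBP2, the gene of the small subunit of the nuclear cap-binding complex. It had 31.59, 32.95 and 29.71 TPM in H182 libraries, against 39.08, 40.97 and 41.78 TPM in DMSO libraries. All H182 libraries lay below all DMSO libraries. The mean was 31.4 ± 1.63 TPM in H182 and 40.6 ± 1.39 TPM in DMSO (SD, n = 3 each), a log2 change of -0.36 (SE 0.0618, limma adjusted p = 0.00303). It passed under all 13 alternatives, with adjusted p from 0.0027 to 0.0249. NCBP2 itself had 82.69, 81.96 and 93.86 TPM in H182 and 85.54, 91.95 and 98.86 TPM in DMSO. Its groups overlapped and it did not pass (log2 change -0.10, adjusted p = 0.349). Within a library the level of NCBP2-AS2 was set against that of NCBP2 as the difference of their log2(TPM + 1) values, which for low genes is smaller in size than the log2 ratio of the TPM. This difference was -1.43 ± 0.18 in H182 and -1.16 ± 0.06 in DMSO, apart by -0.27 (SE 0.11) without overlap of the groups (two-sided exact permutation p = 0.1, the smallest that 3 against 3 libraries can give). NCBP2-AS2 was named because it passed in these same libraries, so this difference is a description and no separate support. The same holds for the other passing members below. The pair shares no exonic base in the annotation.

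GAS6-AS2 (ENSG00000272695.1, chromosome 13, 113864168 to 113866833, plus strand, 2 exons) starts 101 bases from GAS6, the gene of a secreted ligand of the AXL, TYRO3 and MER receptor kinases. It had 4.63, 4.44 and 4.67 TPM in H182, against 7.69, 6.09 and 6.85 TPM in DMSO. The H182 libraries lay close together and below every DMSO library. The mean was 4.58 ± 0.123 TPM in H182 and 6.88 ± 0.80 TPM in DMSO, a ratio of 0.666 (log2 change -0.49, SE 0.113, limma adjusted p = 0.0126). It passed under all 13 alternatives, with adjusted p from 0.0108 to 0.0471. GAS6 had 190.79, 202.18 and 201.70 TPM in H182 and 227.02, 215.73 and 224.69 TPM in DMSO, and it fell in TPM by 0.17 on the log2 scale (adjusted p = 0.0176). That call was lost with median-of-ratios scaling (-0.06, adjusted p = 0.3405), with quantile normalization (-0.10, adjusted p = 0.121), without the variance trend (adjusted p = 0.0759) and without H182 replicate 1, DMSO replicate 1 or DMSO replicate 3 (adjusted p from 0.0531 to 0.0614). On the log2(TPM + 1) scale GAS6-AS2 minus GAS6 was -5.16 ± 0.07 in H182 and -4.83 ± 0.11 in DMSO, apart by -0.33 (SE 0.07) with no overlap (exact permutation p = 0.1), and by -0.40 with a pseudocount of 0.1.

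MAPKAPK5-AS1 (ENSG00000234608.7, chromosome 12, 111839764 to 111842902, minus strand, 2 merged exons) overlaps the start of MAPKAPK5, the gene of the p38-activated kinase PRAK. It had 27.49, 26.83 and 23.23 TPM in H182, against 23.24, 19.24 and 17.30 TPM in DMSO. The groups touched, with the lowest H182 library at 23.23 TPM and the highest DMSO library at 23.24 TPM. The mean was 25.9 ± 2.29 TPM in H182 and 19.9 ± 3.03 TPM in DMSO (log2 change 0.37, SE 0.109, limma adjusted p = 0.0379). It passed under 7 of 13 alternatives, with adjusted p from 0.0112 to 0.118, and in only 2 of the 6 fits that left out a library (log2 change 0.32, 0.34, 0.35 and 0.27 without H182 replicate 1, H182 replicate 2, DMSO replicate 2 and DMSO replicate 3, where it did not pass). MAPKAPK5 had 77.49, 69.92 and 69.40 TPM in H182 and 68.53, 73.58 and 77.45 TPM in DMSO (log2 change -0.02, adjusted p = 0.863). On the log2(TPM + 1) scale MAPKAPK5-AS1 minus MAPKAPK5 was -1.45 ± 0.10 in H182 and -1.83 ± 0.29 in DMSO, apart by 0.38 (SE 0.18), and the groups overlapped (exact permutation p = 0.2). The pair shares 792 exonic bases, 34.6% of those of MAPKAPK5-AS1. The kit marks strand, but the strand setting of the counting was not given in the sources used here, so reads of this stretch may have been shared between the genes. Its part in the result was not tested.

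HIF1A-AS2 (ENSG00000258667.1, chromosome 14, 61715558 to 61751097, minus strand, 3 exons with 533 bases) runs back through HIF1A, the gene of the oxygen-regulated subunit of HIF-1. It had 7.89, 9.67 and 7.97 TPM in H182, against 7.07, 6.01 and 6.06 TPM in DMSO, and all H182 libraries lay above all DMSO libraries. The mean was 8.51 ± 1.01 TPM in H182 and 6.38 ± 0.60 TPM in DMSO (log2 change 0.36, SE 0.114, limma adjusted p = 0.0454). This call was close to the threshold. It held under 6 of 13 alternatives, with adjusted p from 0.0292 to 0.147, and it was kept without DMSO replicate 1 but lost without any other single library (log2 change 0.28 to 0.41). HIF1A had 214.97, 207.66 and 233.31 TPM in H182 and 246.69, 238.69 and 233.09 TPM in DMSO, where it did not pass (log2 change -0.13, adjusted p = 0.0793), although it did without H182 replicate 3 (log2 change -0.18, adjusted p = 0.0213). On the log2(TPM + 1) scale HIF1A-AS2 minus HIF1A was -4.53 ± 0.22 in H182 and -5.03 ± 0.08 in DMSO, apart by 0.50 (SE 0.13) with no overlap (exact permutation p = 0.1).

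**Figure D3:**
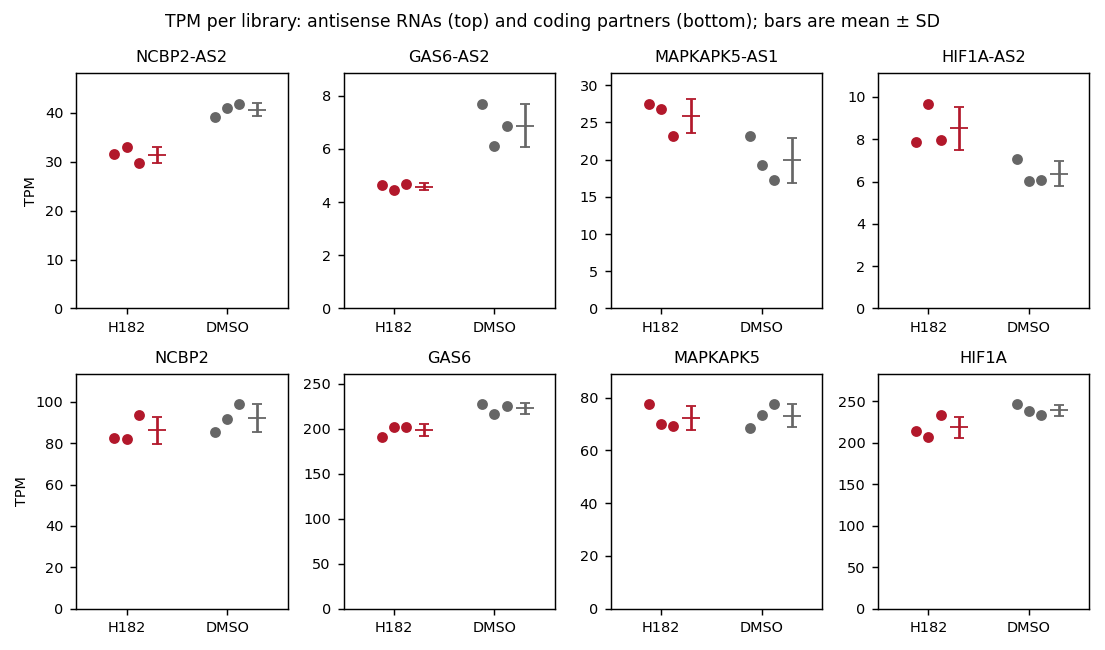
TPM in each library for the 4 antisense RNAs that passed (top) and their partners (bottom), with H182 (red) left of DMSO (grey), points for libraries and bars for mean ± SD (n = 3 each). The groups are apart for NCBP2-AS2, GAS6-AS2 and HIF1A-AS2 and touch for MAPKAPK5-AS1, and of the partners only GAS6 shows groups apart.

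Of the 28 partners that were tested, 2 rose and 7 fell in TPM, a share of 32.1% against 24.0% of all tested genes. These partners all belonged to the 20 divergent pairs, and none of the 6 tested partners with shared exonic bases passed. That difference was not tested, and for several of those 6 the antisense RNA also starts near the partner's start. With median-of-ratios scaling 3 partners rose and 2 fell, where 969 of all 12294 tested genes rose and 833 fell (14.7% passed). With quantile normalization 3 partners rose and 3 fell, where 833 of all tested genes rose and 1261 fell. The balance of partner calls thus depended on the scaling, as did that of all tested genes. In 1 pair, GAS6-AS2 and GAS6, both genes passed. In 3 pairs only the antisense RNA passed, and in 8 only the partner. None of the partners changed by 1 on the log2 scale. Passing in 1 gene of a pair and not in the other does not show that their changes differed.

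Among the pairs where only the partner passed, OSER1 had the largest rise. These pairs were picked out after their values were seen. OSER1, a gene named for its response to oxidative stress, had 84.42, 83.95 and 83.07 TPM in H182 and 52.66, 56.58 and 58.82 TPM in DMSO (log2 change 0.57, adjusted p = 6.12e-05). OSER1-AS1, which starts 169 bases away, had 6.04, 8.72 and 8.08 TPM in H182 and 6.63, 5.36 and 4.86 TPM in DMSO. Its groups overlapped and it did not pass (log2 change 0.38, SE 0.15, adjusted p = 0.0996), although it did without H182 replicate 1 (log2 change 0.51, adjusted p = 0.0408). BAIAP2, the gene of the membrane-bending actin regulator IRSp53, had 85.44, 88.61 and 78.64 TPM in H182 and 60.36, 65.39 and 73.15 TPM in DMSO (log2 change 0.34, adjusted p = 0.00969). The divergent BAIAP2-AS1 had 1.59, 1.34 and 1.83 TPM in H182 and 1.86, 1.74 and 1.96 TPM in DMSO (log2 change -0.15, adjusted p = 0.506). On the log2(TPM + 1) scale BAIAP2-AS1 minus BAIAP2 was -5.04 ± 0.22 in H182 and -4.56 ± 0.12 in DMSO (difference -0.49, SE 0.15, no overlap, exact permutation p = 0.1).

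Other divergent pairs, also picked out after their values were seen, had lower values of both transcripts in H182. TRAM2-AS1 had 7.90, 6.99 and 7.20 TPM in H182 against 8.97, 8.45 and 12.19 TPM in DMSO (log2 change -0.36, adjusted p = 0.0760). Its partner TRAM2, which encodes a membrane protein of the endoplasmic reticulum translocon, fell (log2 change -0.29, adjusted p = 0.00231). PAXIP1-AS1 had 2.27, 3.15 and 2.41 TPM in H182 against 3.42, 3.90 and 4.46 TPM in DMSO (log2 change -0.45, adjusted p = 0.0509). It passed without the variance trend (adjusted p = 0.0439), at a mean of at least 2 TPM (adjusted p = 0.0488) and without H182 replicate 2 (adjusted p = 0.0418). Its partner PAXIP1, the gene of the DNA damage and histone methylation factor PTIP, fell in TPM (log2 change -0.22, adjusted p = 0.0257). That call was lost under 8 of 13 alternatives, among them median-of-ratios scaling (-0.12) and each fit without a library except H182 replicate 3 (adjusted p = 0.0463). For these antisense RNAs the groups did not overlap.

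In other divergent pairs, picked out in the same way, the partner fell and its antisense RNA did not pass. NUP50, a nuclear pore gene, had 46.39, 37.69 and 46.09 TPM in H182 and 49.28, 59.22 and 55.03 TPM in DMSO (log2 change -0.32, adjusted p = 0.03195, and -0.22, adjusted p = 0.148, with median-of-ratios scaling). NUP50-AS1 had 6.22, 6.15 and 5.98 TPM in H182 and 5.53, 6.23 and 5.67 TPM in DMSO. On the log2(TPM + 1) scale NUP50-AS1 minus NUP50 was -2.63 ± 0.17 in H182 and -3.02 ± 0.07 in DMSO (difference 0.39, SE 0.11, no overlap, exact permutation p = 0.1). USP46, a deubiquitinase gene, fell by 0.37 on the log2 scale (adjusted p = 0.00721), while USP46-AS1 had a log2 change of -0.09 (adjusted p = 0.751). Over the 29 pairs without PGM5-AS1, the antisense value minus the partner value did not overlap between the groups in 7, of which 2 were higher and 5 lower in H182. The same was not computed for other gene pairs, so nothing is read from this count.

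Across the 28 pairs with both genes tested, the change of the antisense RNA and that of its partner were weakly related (Pearson r = 0.313, Spearman rho = 0.381). In the 20 divergent pairs r was 0.46, and 0.269 without OSER1-AS1 and OSER1. In the 6 pairs with shared exonic bases it was -0.30. Pairs are not independent replicates: all come from the same 6 libraries and share the same TPM totals, so these values only describe the plot of paired changes.

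**Figure D4:**
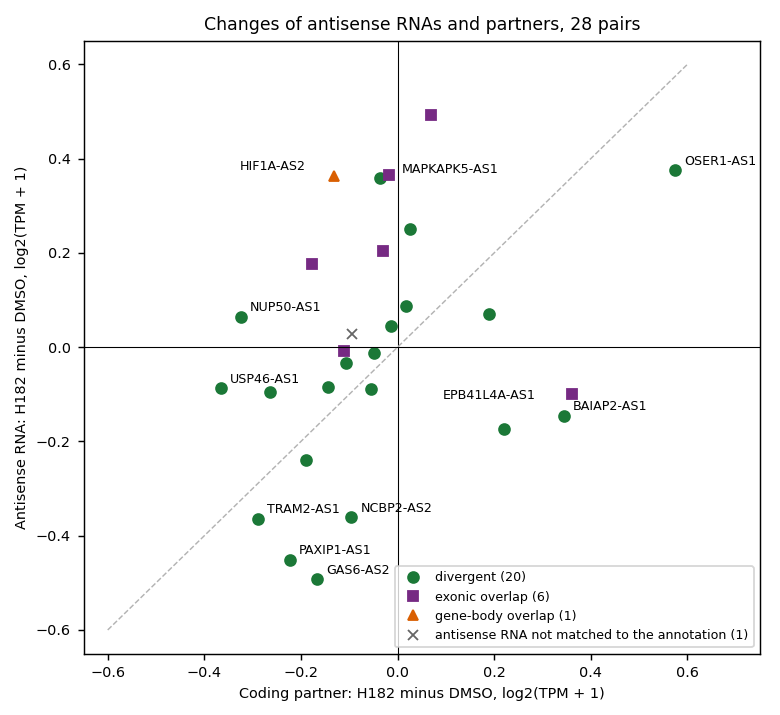
Change of each antisense RNA (vertical) against that of its partner (horizontal), H182 minus DMSO on the log2(TPM + 1) scale, for 28 pairs marked by position, with the line of equal change dashed. OSER1-AS1 and OSER1 lie together at the upper right, GAS6-AS2, PAXIP1-AS1 and TRAM2-AS1 lie low with their partners, and HIF1A-AS2 and MAPKAPK5-AS1 lie high beside partners near or below 0.

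The error of a change was larger at low levels. The SE of the log2 change had a median of 0.148 over the members and 0.0838 over all tested genes. At 1 to 10 TPM it was 0.165 for 27 members and 0.149 for 3708 genes, and 7.41% of these members passed, against 10.7% of these genes. RASAL2-AS1, whose mean was under 1 TPM in DMSO, had 1.45, 1.25 and 1.62 TPM in H182 and 0.52, 0.72 and 1.62 TPM in DMSO, a ratio of 1.51 in mean TPM that did not pass (log2 change 0.36, SE 0.217, adjusted p = 0.262).

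**Figure D5:**
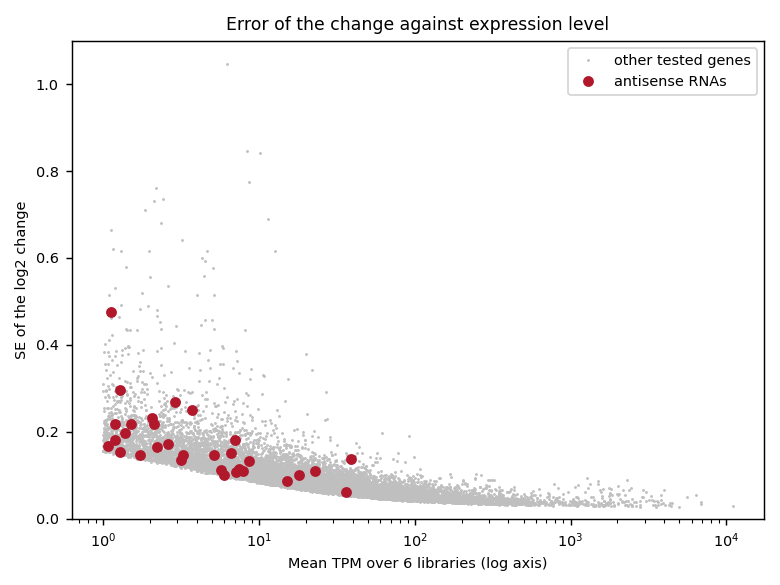
SE of the log2 change (H182 minus DMSO) against the mean TPM over 6 libraries (log axis) for the 32 antisense RNAs (red) and all other tested genes (grey). The members lie within the cloud of genes at their level, and PGM5P4-AS1 has the largest SE among them at 0.474.

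The PGM5-named members (PGM5-AS1, PGM5P3-AS1 and PGM5P4-AS1) share sequence in part, and their division of reads is uncertain. Of the 31-base words in the transcripts of PGM5P4-AS1, 88.1% also occur in those of PGM5P3-AS1, and 60.5% the other way round. Of the words of PGM5-AS1, 53.6% occur in PGM5P3-AS1 and 54.6% in PGM5P4-AS1, which in turn have 17.5% (PGM5P3-AS1) and 25.9% (PGM5P4-AS1) of their words in PGM5-AS1. PGM5-AS1 alone had 2.48, 2.42 and 3.24 TPM in H182 and 2.64, 4.71 and 7.01 TPM in DMSO, and it passed without DMSO replicate 1 (log2 change -0.87, adjusted p = 0.0134). Summed over the 3 genes, the level was 11.15, 9.66 and 12.5 TPM in H182 and 11.5, 12.08 and 14.86 TPM in DMSO. The means were 11.1 ± 1.42 TPM in H182 and 12.8 ± 1.80 TPM in DMSO (SD, n = 3 each). The groups overlapped, and the sum was not tested.

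The genes that end or degrade antisense transcripts were also measured. Of 40 genes of the nuclear exosome, its adaptors, Integrator and transcription termination, 2 rose and 8 fell in TPM, a share of 25% against 24.0% of all tested genes. With median-of-ratios scaling 4 rose and 3 fell, where 14.7% of all tested genes passed. The rises were in ZCCHC8 (43.26, 42.81 and 44.63 TPM in H182, against 32.64, 35.82 and 34.82 TPM in DMSO; log2 change 0.33, adjusted p = 0.00337) and RBM7 (69.35, 69.88 and 67.52 TPM in H182, against 53.06, 59.71 and 61.16 TPM in DMSO; log2 change 0.25, adjusted p = 0.0169), the scaffold and the RNA-binding subunit of NEXT. The helicase of NEXT, listed under its older symbol SKIV2L2, did not pass (log2 change -0.24, adjusted p = 0.0734). PCF11, a termination factor, had 14.05, 13.42 and 17.75 TPM in H182, against 28.37, 29.63 and 25.22 TPM in DMSO (log2 change -0.85, adjusted p = 0.0006). The Integrator subunit gene INTS5 had 10.24, 11.24 and 11.22 TPM in H182, against 17.47, 18.33 and 18.16 TPM in DMSO (log2 change -0.67, adjusted p = 0.000302). The other falls were smaller, in DIS3, EXOSC10, XRN2, SRRT, INTS3 and PABPN1 (log2 change from -0.31 in DIS3 to -0.13 in PABPN1). With median-of-ratios scaling, and with quantile normalization, 3 genes of the list fell, PCF11 and INTS5 among them. Most of these smaller falls thus lost their call under each scaling. The calls of ZCCHC8, RBM7, PCF11 and INTS5 held with both scalings. Whether any of these changes bear on the antisense RNAs was not tested.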

How the data were processed

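The authors deposited TPM for each gene in each library. STAR 2.5.0, RSEM 1.2.25 and GRCh38 are named in the submitters' processing notes. Annotation, trimming and strand setting are not given in the sources used here. TPM keeps no depth, so depth is unknown and no counting interval was given. Of 27567 rows, 92 spike-in rows at 0 and 24 Y copies of shared X and Y genes were left out. Members and lists were chosen with earlier results of these data known.

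H182 was compared with DMSO on log2(TPM + 1) with limma 3.58.1 in R 4.3.3 (variance trend, two-sided), which was tested on simulated data. Within-library differences of log2(TPM + 1), antisense RNA minus partner, were compared by exact permutation. Named were members passing 0.05 with partners, the 5 highest and the 3 on either side of 1 TPM; other names were picked with values in view. The values of 1 of the 5 highest, and of its partner, are not reported here. The labels do not say that replicates came from separate cultures. The p-values then measure only how far these libraries spread, which may be technical. Positions came from GENCODE 29, which matched 26943 of 27451 gene rows (30 members with the same version). Alternatives covered pseudocount, filter, scaling, trend, replicate block and leaving out each library. Figures used matplotlib 3.10.9.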

Additional observations from a re-analysis of the deposited data

How the results depend on the processing

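The counts of members were 2 higher and 2 lower with pseudocount 0.1, median-of-ratios scaling and quantile normalization. The higher count was 0 with no filter on low values, 1 without the variance trend and 1 with a replicate block, and 0 to 2 when each library was left out. The lower count was 2 to 4 in those fits, 4 without DMSO replicate 1, and 2 with the block. The count of genes that fell was 833 with median-of-ratios scaling and 1261 with quantile normalization, against 2304 in TPM, and 1396 to 2205 when each library was left out, lowest without DMSO replicate 2 (1396) and H182 replicate 2 (1478). Deviations of same-numbered libraries from their group means correlated at -0.013, 0.0025 and -0.0359. These values show no shared effect of the replicate number. They cannot show whether the libraries were prepared in pairs, which the labels do not say. The values of antisense RNA minus partner were apart in 6 to 7 of 30 pairs (PGM5-AS1 included) with all 6 libraries. When a library was left out they were apart in 8 to 10, but fewer libraries overlap less readily. The differences of the 4 passing members kept their sign under every alternative run. The depth of the libraries is unknown.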
